A study of Rattus norvegicus with 6 samples.

Results

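The nuclear genes for the subunits of the mitochondrial respiratory chain and the ATP synthase were followed in rat pancreatic islets, the endocrine cell clusters of the pancreas, at 2 stages. They were chosen by gene symbol: Ndufa, Ndufb, Ndufc, Ndufs and Ndufv genes and Ndufab1 for complex I, Ndufaf genes for its assembly factors, Uqcr genes for complex III, Cycs for cytochrome c, Cox4 to Cox8 genes and Ndufa4 for complex IV, and Atp5 genes for the ATP synthase. The array named 77 such genes of 13903 named genes in all, by 79 probes: 32 complex I subunits, 5 complex I assembly factors, 7 complex III subunits, cytochrome c, 17 complex IV subunits and 15 ATP synthase genes. Of these, 72 were measured well enough to be tested. The subunits encoded by mitochondrial DNA and Cyc1, Cox7a1, Cox7b2, Ndufa4l2 and Atp5mc3 were not analysed here.

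The adult group comprised islets of adult male rats, 3 arrays that the labels give as 3 rats. The P10 group comprised islets of rats aged 10 days, 3 arrays that the labels give as 3 pools of animals. Strain, adult age and the sex of the young rats are not given in the labels. All islets had been released with collagenase, and their total RNA was labelled with the dye Cy3 and hybridised to a 1-colour Agilent array, 1 sample per array. The question put by the series is how mRNAs differ between the immature islets of suckling rats and mature islets.

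The respiratory chain passes electrons from NADH and succinate to oxygen. Complexes I, III and IV pump protons out of the mitochondrial matrix as electrons pass, and the ATP synthase lets the protons back in and makes ATP. In beta cells, the insulin-secreting cells of the islet, the ATP made when glucose is oxidised closes potassium channels in the plasma membrane, which starts insulin release. Most subunits are encoded in the nucleus, and for several subunits of complex IV the genome holds more than 1 gene, each used in different tissues.

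Levels below are log2 signal minus the array's 75th percentile, so a level can be negative. Changes are adult minus P10 on the same scale with the standard error (SE) of the fit. A gene is said to have risen or fallen where limma's p-value, adjusted by Benjamini-Hochberg over all 18362 probes tested, was under 0.05. Adult arrays 2 and 3 differed by no more than the noise between spots (a variance ratio of 1.08 over 1358 probes), as did P10 arrays 1 and 2 (0.93). Each of these pairs was averaged and counted as 1 sample, which leaves n = 2 per stage for each SD. Of the other pairs, P10 array 3 stood at 2.27 against array 1 and 1.47 against array 2. Adult array 1 stood at 42.5 and 42.9 against adult arrays 2 and 3. The limit for counting arrays as 1 sample was a ratio of 1.5. P10 array 3 was over it against array 1 and just under it against array 2, and was counted separately. Whether it is a separate sample is therefore not settled, and the spread at P10 may be that of repeat arrays. By the scan given in the file headers, adult arrays 2 and 3 were taken to lie on a second slide. The spread between adult samples and a difference between slides therefore cannot be told apart. The p-values measure only the spread between these few samples.

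How the arrays were scaled bore on the counts. Adult arrays had a 75th percentile of 10.93 to 11.36 (log2 signal) and P10 arrays of 9.92 to 9.99, and after subtracting it the median change of all tested probes was -0.23. Quantile normalization, which gives all arrays the same distribution, brought that median to -0.02. Both scalings are therefore given.

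Markers of other cell types differed between the stages in the same limma fit, in which 23.7% of all named genes tested were higher and 28.7% lower. All 9 enterocyte markers tested were lower in adult islets, and their summed signal was 7.59 to 8.47 times the 75th percentile on adult arrays and 280 to 295 times on P10 arrays. Of these, Apoa4 was not well above background on any adult array, Fabp1 and Fabp2 were on 1 of 3, and the sum without Vil1 was 0.150 to 0.181 in adult islets and 257 to 271 at P10. Of 9 acinar markers 7 were lower and 0 higher in adult islets (4 lower and 1 higher with quantile normalization), with summed signals of 404 to 574 in adult islets and 1220 to 1300 at P10. All 9 leukocyte markers were higher, with sums of 23.0 to 24.2 in adult islets and 7.05 to 7.48 at P10. Among those Cd79b and Itgam were not well above background at P10. Some of these leukocyte calls, and of the acinar calls, did not pass without P10 array 3. Of 8 beta cell markers 5 were higher and 1 lower (6 and 0 with quantile normalization), with sums of 281 to 385 in adult islets and 331 to 366 at P10. What these cells contribute to the changes in subunit transcripts was not tested. In bulk RNA, fewer cells of a type and less RNA per cell cannot be told apart.

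With 75th percentile scaling 13 of the 72 tested genes rose in adult islets (18.1%, beside 23.7% of all 11410 named genes tested) and 27 fell (37.5%, beside 28.7%). With quantile normalization 20 rose (27.8%, beside 30.0%) and 15 fell (20.8%, beside 27.2%). The same 13 rose and 13 fell with both scalings. Of the rest, 14 fell only with 75th percentile scaling, 7 rose and 2 fell only with quantile normalization, 23 passed neither way, and 0 were called in opposite directions. The share of subunit genes that rose or fell was thus near the share of all genes, or on either side of it by scaling. Their median change was -0.35 with 75th percentile scaling (beside -0.13 for all named genes tested) and 0.00 with quantile normalization (beside 0.04). Ndufaf5 was fitted without adult array 3 and Ndufb6 without P10 array 1, whose spots were flagged. On the array values, the 3 adult and 3 P10 arrays did not overlap for 62 of the 72 genes (86.1%), beside 78.2% of all named genes tested.

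At P10 the spread used in the test is the gap of array 3 to the mean of arrays 1 and 2. Without P10 array 3, the remaining P10 sample is assumed to vary like the adult ones, and 4 genes rose and 3 fell of 74 fitted, while among all named genes tested 9.42% rose and 12.0% fell. These were Ndufs4, Ndufb5, Uqcrb and Ndufa4, which rose, and Cox6a2, Cox6b2 and Ndufab1, which fell. These 7 were called in the same direction under each of the 19 settings in which they were fitted. These settings share arrays, and some leave 1 sample in an arm. On slide 1, which held adult array 1 and all P10 arrays, the median change of 71 genes fitted was -0.39, beside -0.19 for all named genes. With slide as a block it was -0.42 for 70 genes, beside -0.2. In both of these fits the change comes from adult array 1 alone, the only adult array on a slide with P10 arrays, and is assumed to vary like the arrays that have a repeat.

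**Figure D1:**
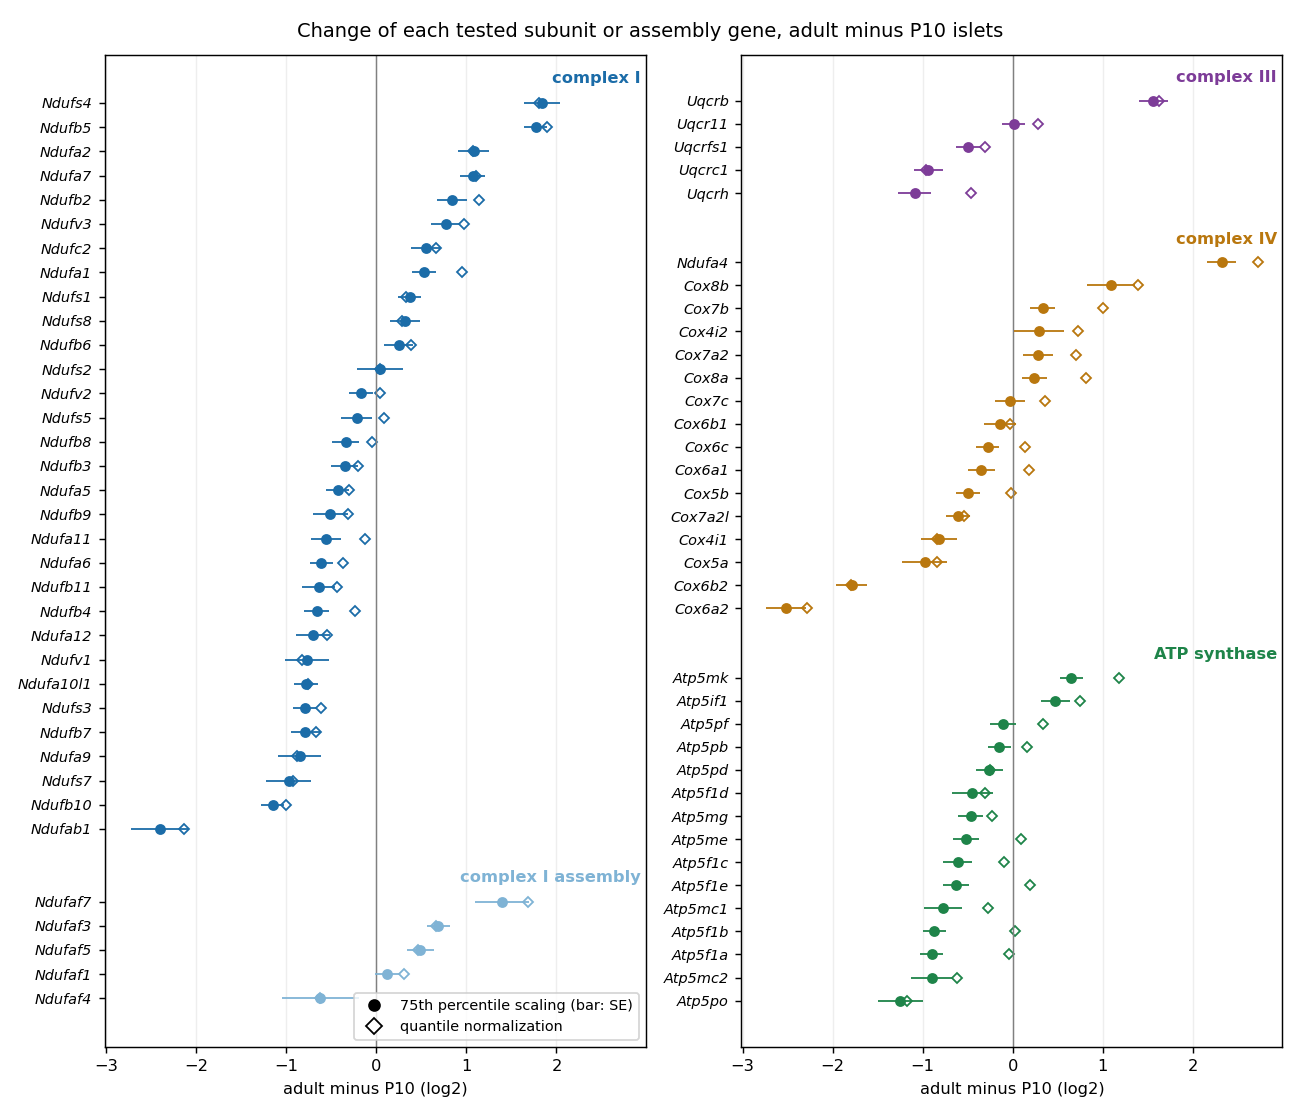
Change of each of the 72 tested genes, adult minus P10 in log2 on the horizontal axis, sorted within each complex; filled circles with SE bars are 75th percentile scaling and open diamonds quantile normalization. Complex I spans changes from -2.40 to 1.84, and 13 of the 15 ATP synthase circles lie left of 0 while its diamonds lie on both sides of it.

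Promoters are shown for 4 of these genes, since subunit genes are known for sharing binding sites of a few activators, NRF1, the ETS factor GABP and YY1. Ndufs4 and Cox6a2 are among the 7 genes called under every setting, and Uqcrc1 and Atp5po fell with both scalings. Each is the RefSeq window of 250 bases before to 50 after the gene start on GRCr8, 5′ to 3′ on the gene's strand, with motif matches in capitals. The Ndufs4 window (chr2:47794865-47795164, minus strand) holds a YY1 match and the Cox6a2 window (chr1:192219667-192219966, minus strand) no match. The Uqcrc1 window (chr8:118467973-118468272, plus strand) holds 2 NRF1 matches and a YY1 match. The Atp5po window (chr11:44657434-44657733, minus strand) holds an NRF1 site that reads on both strands.
Ndufs4: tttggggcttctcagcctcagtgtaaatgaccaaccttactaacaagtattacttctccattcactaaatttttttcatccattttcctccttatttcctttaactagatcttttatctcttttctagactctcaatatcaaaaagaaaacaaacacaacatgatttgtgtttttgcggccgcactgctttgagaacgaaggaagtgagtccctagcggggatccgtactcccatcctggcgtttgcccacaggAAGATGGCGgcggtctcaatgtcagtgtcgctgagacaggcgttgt
Cox6a2: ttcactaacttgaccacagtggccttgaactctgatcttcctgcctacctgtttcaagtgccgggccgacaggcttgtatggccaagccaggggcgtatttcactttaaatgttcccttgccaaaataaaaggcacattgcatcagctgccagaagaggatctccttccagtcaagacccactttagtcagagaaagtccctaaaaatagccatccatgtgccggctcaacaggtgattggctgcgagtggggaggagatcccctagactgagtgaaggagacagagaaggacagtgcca
Uqcrc1: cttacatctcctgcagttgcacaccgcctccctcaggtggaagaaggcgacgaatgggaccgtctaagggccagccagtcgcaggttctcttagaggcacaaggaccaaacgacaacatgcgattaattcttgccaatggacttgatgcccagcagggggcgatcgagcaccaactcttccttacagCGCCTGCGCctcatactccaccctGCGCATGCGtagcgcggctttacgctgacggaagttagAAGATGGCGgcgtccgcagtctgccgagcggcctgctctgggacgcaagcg
Atp5po: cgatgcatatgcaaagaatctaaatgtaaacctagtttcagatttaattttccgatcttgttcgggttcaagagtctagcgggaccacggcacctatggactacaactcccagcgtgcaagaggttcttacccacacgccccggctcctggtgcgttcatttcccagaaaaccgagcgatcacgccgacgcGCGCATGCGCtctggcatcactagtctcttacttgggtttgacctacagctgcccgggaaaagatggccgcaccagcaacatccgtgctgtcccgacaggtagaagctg

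Complex I, the NADH dehydrogenase, held genes that moved both ways. With 75th percentile scaling 7 of its 31 tested subunit genes rose (22.6%, beside 23.7% of all named genes), 10 fell (32.3%, beside 28.7%) and 14 did not pass, with a median change of -0.35. With quantile normalization 8 rose and 8 fell (25.8% each, beside 30.0% and 27.2% of all named genes), with a median of -0.13. Of the 7 core subunits encoded in the nucleus 0 rose, 2 fell (Ndufs3 by 0.79 and Ndufs7 by 0.97) and 5 did not pass. Of these 7, 0 rose and 3 fell with quantile normalization. These nuclear core subunits carry the flavin and the iron-sulfur clusters or sit beside them. Among the 24 accessory subunits tested 7 rose and 8 fell (8 and 5 with quantile normalization). When P10 array 3 was left out, 2 complex I genes rose and 1 fell.

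Ndufs4 encodes an accessory subunit near the NADH end of complex I whose loss causes Leigh syndrome in people. It stood at 1.62, 1.18 and 1.19 on the adult arrays and at -0.49, -0.39 and -0.43 on the P10 arrays. No adult array reached down to a P10 array, and the change was 1.84 (SE 0.20, a 3.57-fold higher mean in adult islets, limma adjusted p = 0.00507). The level averaged 1.40 ± 0.30 in adult islets and -0.44 ± 0.01 at P10 (SD, n = 2 each).

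Ndufb5, an accessory subunit of the membrane arm, stood at -1.54, -1.53 and -1.40 on adult arrays and at -3.16, -3.30 and -3.31 on P10 arrays. The arrays of the 2 stages lay far apart relative to their spread, with a change of 1.77 (SE 0.13, 3.40-fold, limma adjusted p = 0.00251). Ndufa2 and Ndufa7, both accessory subunits, rose as well. Ndufa2 had levels of -0.05, -0.35 and -0.33 in adult islets and -1.33, -1.21 and -1.28 at P10, a change of 1.08 (limma adjusted p = 0.011). Ndufa7 changed by 1.07 (limma adjusted p = 0.00717). Neither passed without P10 array 3, with limma adjusted p-values of 0.115 for Ndufa2 and 0.119 for Ndufa7.

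Ndufab1 encodes the mitochondrial acyl carrier protein, which is a complex I subunit and also serves mitochondrial fatty acid synthesis. Its levels were -4.83, -3.92 and -4.14 on adult arrays and -2.02, -2.05 and -2.02 on P10 arrays. The adult arrays were lower throughout and scattered more widely, and the change was -2.40 (SE 0.32, limma adjusted p = 0.00773), a ratio of adult to P10 of 0.189. Ndufb10, another membrane arm subunit, stood at 3.30, 3.23 and 3.43 in adult islets and 4.49, 4.50 and 4.44 at P10, a change of -1.15 (SE 0.13, limma adjusted p = 0.00542). The fall of Ndufb10 did not pass once P10 array 3 was left out (limma adjusted p = 0.0861).

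The other complex I genes that rose with both scalings were Ndufa1, Ndufb2 and Ndufv3, by 0.53 to 0.84, and those that fell with both were Ndufa10l1, Ndufb7, Ndufs3 and Ndufs7. All 7 missed the threshold once P10 array 3 was left out, as did Ndufb2 and Ndufs7 with normexp and Ndufa10l1, Ndufb7 and Ndufs3 with median scaling. Ndufv3 encodes a small flavoprotein-arm subunit known to occur in 2 splice forms, and its 2 probes gave different readings. The probe used for the counts changed by 0.77 (limma adjusted p = 0.0235), and the second probe, at -0.90, -0.90 and -0.89 in adult islets and -0.85, -0.84 and -0.87 at P10, changed by -0.04 (limma adjusted p = 0.828). Ndufs1, the largest core subunit, had levels of 1.93, 1.95 and 1.92 in adult islets and 1.61, 1.58 and 1.53 at P10, and its change of 0.37 did not pass (limma adjusted p = 0.0792). Ndufa10 was not tested because its spot was flagged as uneven on 1 P10 array. With such spots kept it changed by -0.30 (limma adjusted p = 0.227).

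Complex I assembly factors, which help to build the complex without staying in it, had 5 tested genes, of which 2 rose and 0 fell (3 and 0 with quantile normalization), and 0 passed without P10 array 3. Of all named genes tested 23.7% rose and 28.7% fell (30.0% and 27.2% with quantile normalization). Ndufaf7, a methyltransferase that modifies a core subunit, stood at -2.55, -3.31 and -3.25 in adult islets and -4.31, -4.53 and -4.22 at P10. Every adult array was above every P10 array, and the change was 1.40 (SE 0.30, limma adjusted p = 0.0242). With normexp it was 0.74 and did not pass (limma adjusted p = 0.0653). Ndufaf3 rose by 0.69 (limma adjusted p = 0.0173), and its second probe gave 0.73 (limma adjusted p = 0.0146). Ndufaf4 showed the widest gap among adult arrays, with -0.58 on array 1 and -1.70 and -1.74 on arrays 2 and 3, against -0.45, -0.47 and -0.60 at P10. The change of Ndufaf4 was -0.62 (SE 0.43, limma adjusted p = 0.282), -0.08 on slide 1 alone, and -1.19 without adult array 1, where it fell (limma adjusted p = 0.00227).

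Complex III passes electrons from ubiquinol to cytochrome c. With 75th percentile scaling 1 of its 5 tested genes rose (20.0%, beside 23.7% of all named genes) and 3 fell (60.0%, beside 28.7%). Quantile normalization gave 1 rise and 1 fall (20.0% each, beside 30.0% and 27.2%). Uqcrb, the ubiquinone-binding protein, rose, with levels of -0.70, -0.89 and -1.08 in adult islets and -2.36, -2.49 and -2.38 at P10. The 2 stages were well separated, with a change of 1.56 (SE 0.16, 2.95-fold, limma adjusted p = 0.00472).

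The genes that fell were Uqcrc1, Uqcrh and Uqcrfs1, and none of them passed without P10 array 3. Uqcrc1, a core protein, stood at 1.20, 1.29 and 1.56 in adult islets and 2.33, 2.27 and 2.19 at P10, and changed by -0.94 (SE 0.16, limma adjusted p = 0.0134). Uqcrh, the hinge protein that contacts cytochrome c1, stood at 4.52, 4.91 and 4.83 in adult islets and 5.82, 5.85 and 5.73 at P10. Its change was -1.09 (limma adjusted p = 0.0136), but -0.47 with quantile normalization, which did not pass (limma adjusted p = 0.0941). Uqcrfs1, the Rieske iron-sulfur protein, changed by -0.50 (limma adjusted p = 0.0413), and by -0.31 with quantile normalization (limma adjusted p = 0.0953). Uqcrc2 was not tested, since its spots were flagged on all 3 P10 arrays, and with these kept it changed by 0.07 (limma adjusted p = 0.761). Uqcrq was not well above background on any array.

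Cytochrome c carries electrons to complex IV. The spot of Cycs was flagged on 2 P10 arrays, so it was left out of the counts. With flagged spots kept its levels were 3.35, 3.26 and 3.22 in adult islets and 2.49, 2.56 and 2.62 at P10. The stages did not overlap, and the change was 0.72 (limma adjusted p = 0.0182). With flagged spots out and P10 array 3 left out it could be fitted from P10 array 1 alone, and did not pass (0.81, limma adjusted p = 0.191). Annotated copies of Cycs elsewhere in the genome number 7, which its probe might also read.

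Complex IV, cytochrome c oxidase, reduces oxygen to water, and its small nuclear subunits include tissue-specific forms. Of 16 tested genes 2 rose (12.5%, beside 23.7% of all named genes) and 6 fell (37.5%, beside 28.7%) with 75th percentile scaling (median change -0.21). Quantile normalization gave 6 rises and 5 falls (37.5% and 31.2%, beside 30.0% and 27.2%), with a median of 0.16. Of these, 3 genes were called under every setting, and these 3 were the only calls without P10 array 3.

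Ndufa4, long listed under complex I and now counted as a complex IV subunit, showed the steepest rise of all 72 genes with both scalings. It stood at -2.84, -2.90 and -2.77 in adult islets and -4.96, -5.08 and -5.29 at P10. The change was 2.32 (SE 0.16, 4.99-fold, limma adjusted p = 0.0022), and 2.72 with quantile normalization. With normexp background correction it was 1.11 (2.16-fold, limma adjusted p = 0.0225), less than the 1.77 of Ndufs4 there. The signal of Ndufa4 was low at P10 but well above background on all 6 arrays.

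Cox6a2, the form of subunit VIa used in heart and skeletal muscle, showed the steepest fall. Its levels were -4.65, -4.14 and -4.16 in adult islets and -1.99, -1.76 and -1.88 at P10, with no overlap. The change was -2.52 (SE 0.22, limma adjusted p = 0.00328), a ratio of adult to P10 of 0.174. The form used in most tissues, Cox6a1, stood at 4.62, 4.80 and 4.91 in adult islets and 5.07, 5.12 and 5.08 at P10. Its change of -0.35 did not pass (limma adjusted p = 0.125) and was 0.18 with quantile normalization.

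Cox6b2, a form of subunit VIb known from testis, fell too. It stood at 1.14, 1.66 and 1.08 in adult islets and 3.19, 3.10 and 2.94 at P10, a change of -1.79 (SE 0.17, limma adjusted p = 0.00379), or a ratio of 0.290. The general form Cox6b1 had levels of -2.29, -2.55 and -2.62 in adult islets and -2.56, -2.25 and -2.21 at P10, which overlap, and its change of -0.14 did not pass (limma adjusted p = 0.555; it was 0.16 with median scaling).

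**Figure D2:**
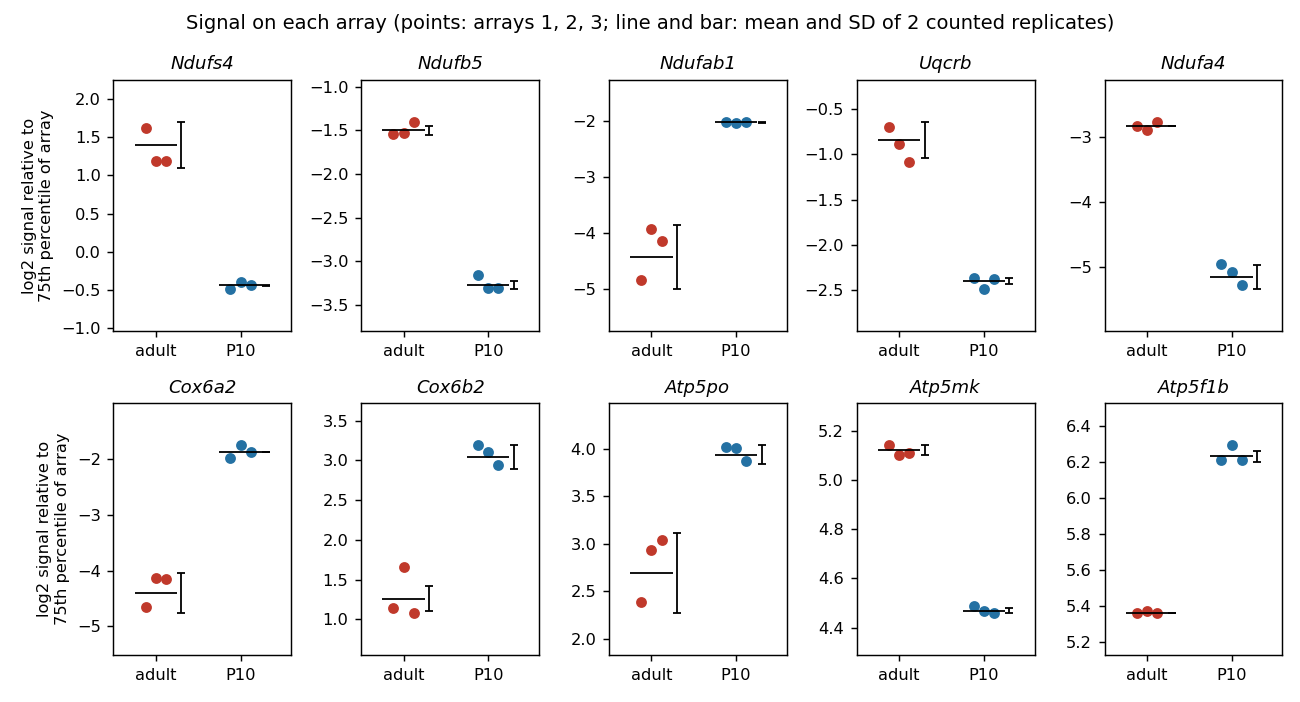
Level of 10 genes on each array, in log2 after subtraction of the 75th percentile (vertical axis, its range differing between panels); points are arrays 1 to 3 of adult islets (left, red) and P10 islets (right, blue), lines the means and bars the SD of the 2 counted samples. Points of the 2 stages do not overlap in any of the 10 panels, and in Ndufs4, Ndufab1, Cox6a2 and Atp5po adult array 1 lies apart from adult arrays 2 and 3.

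Since Cox6a2 and Cox8b are known from striated muscle and Cox6b2 from testis, markers of those tissues are given beside them. Of 9 striated muscle markers tested 3 were higher (Acta1, Myh1 and Myh2) and 4 lower (Ckm, Tnnt3, Tnni2 and Mb) in adult islets. With quantile normalization and without P10 array 3 alike, 3 were higher and 3 lower, Tnnt3 not passing. Their summed signal was 1.28 to 1.53 in adult islets and 0.406 to 0.424 at P10. Of that sum Acta1, an actin gene, made up 1.14 to 1.39 in adult islets and 0.201 to 0.213 at P10, and the other muscle markers together 0.141 to 0.156 in adult islets and 0.194 to 0.223 at P10. Mb, the gene for myoglobin, was not well above background in adult islets, and Myh1 and Myh2, muscle myosins, were not at P10. Of 6 sperm cell markers Cyct, Ldhc and Pgk2 were on no array well above background, and Prm1 (-0.99) and Tnp1 (-0.78) were lower in adult islets. With quantile normalization Tnp1 did not pass (-0.28, limma adjusted p = 0.116), and neither passed without P10 array 3. The summed signal of the sperm markers was 0.148 to 0.196 in adult islets and 0.293 to 0.332 at P10. Of the brown fat markers Ucp1, Ppargc1a and Elovl3 were on no array well above background, while Cpt1b fell by 1.77. Their part in the changes of the complex IV isoforms was not tested.

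The other isoform genes changed less. Cox8b, a muscle form of subunit VIII, stood at -3.31, -2.77 and -2.79 in adult islets and -4.38, -3.50 and -4.33 at P10. Its change of 1.09 (SE 0.27, limma adjusted p = 0.0348) did not pass without P10 array 1, without P10 array 3 (limma adjusted p = 0.195), on slide 1 alone (change 0.76, limma adjusted p = 0.173) or with normexp (change 0.53, limma adjusted p = 0.195). The general form Cox8a changed by 0.24 (limma adjusted p = 0.203) and rose with quantile normalization, by 0.81 (limma adjusted p = 0.0074). It also passed with median scaling and with every array as its own replicate. Cox8c, a testis form, was not well above background on any array.

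Cox4i1, the general form of subunit IV, fell with both scalings, by 0.82 (limma adjusted p = 0.0341) and 0.84. Its levels were 1.13, 1.49 and 1.63 in adult islets and 2.08, 2.19 and 2.20 at P10, without overlap. Cox4i2, the form known from lung and from low oxygen, had -4.61, -3.90 and -3.94 in adult islets and -4.46, -4.52 and -4.62 at P10. Adult array 1 lay among the P10 arrays, and the change of Cox4i2 was 0.29 (limma adjusted p = 0.429), 0.72 with quantile normalization (limma adjusted p = 0.021) and -0.08 on slide 1 alone.

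Cox7a2l, which joins complexes III and IV into supercomplexes, fell by 0.61 with 75th percentile scaling (limma adjusted p = 0.0236) and by 0.54 with quantile normalization (limma adjusted p = 0.0212). Cox5a, which binds on the matrix side, fell with both scalings as well, by 0.98 (limma adjusted p = 0.0367) and 0.84. Cox7a2 and Cox7b did not pass with 75th percentile scaling (0.28 and 0.33) and rose with quantile normalization (0.70 and 1.00). Cox7b also passed with median scaling and with every array as its own replicate. Cox5b fell only with 75th percentile scaling, by 0.50 (limma adjusted p = 0.0385), and its change was -0.02 with quantile normalization. Without P10 array 3, the falls of Cox4i1, Cox5a, Cox7a2l and Cox5b did not pass, nor did they with median scaling or normexp.

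The calls of the ATP synthase genes depended on the scaling. With 75th percentile scaling 8 of its 15 tested genes fell (53.3%, beside 28.7% of all named genes) and 1 rose (6.67%, beside 23.7%). Their median change was -0.52. Of 502 named genes whose probe signal was over 3.76, the median of the 72 genes, 226 fell and 66 rose, with a median change of -0.49. These include 36 of the 72 genes. Over all 11410 named genes the Spearman correlation of signal and change was 0.12. Whether signal level bears on the ATP synthase calls was not tested. With quantile normalization 1 ATP synthase gene fell and 2 rose (6.67% and 13.3%, beside 27.2% and 30.0%), with a median of -0.04. Of the same 502 genes 98 fell and 125 rose. Without P10 array 3, 0 of the 15 passed in either direction with limma.

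Of the F1 head, the part that makes ATP, 4 of 5 genes fell with 75th percentile scaling and 0 with quantile normalization. Atp5f1b, the catalytic beta subunit, stood at 5.36, 5.37 and 5.36 in adult islets and 6.21, 6.29 and 6.21 at P10. Its change was -0.87 (SE 0.13, limma adjusted p = 0.00993) with 75th percentile scaling and 0.02 (limma adjusted p = 0.916) with quantile normalization. Atp5f1a, the alpha subunit, likewise gave -0.90 (limma adjusted p = 0.00921) and -0.04 (limma adjusted p = 0.834). Atp5mc1 and Atp5mc2 encode the same mature subunit of the rotating c ring, with different import sequences, and changed by -0.78 and -0.90 (limma adjusted p = 0.0439 and 0.0378). With quantile normalization neither passed, at -0.28 and -0.62, and none of these genes passed when P10 array 3 was left out.

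Atp5po, which ties the peripheral stalk to the F1 head, was the ATP synthase gene that fell with both scalings. Its levels were 2.39, 2.94 and 3.04 in adult islets and 4.02, 4.01 and 3.87 at P10. Adult array 1 was lowest, no array overlapped between stages, and the change was -1.25 (SE 0.25, limma adjusted p = 0.0215). Quantile normalization gave -1.17 (limma adjusted p = 0.0196), and the change did not pass without P10 array 3 (limma adjusted p = 0.0911). The other 3 peripheral stalk genes did not pass with either scaling.

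Atp5mk, a small membrane subunit also called DAPIT and known for stabilising dimers of the enzyme, rose with both scalings. It stood at 5.14, 5.10 and 5.11 in adult islets and 4.49, 4.47 and 4.46 at P10. The change was 0.65 (SE 0.13, limma adjusted p = 0.0197), and 1.18 with quantile normalization, and it did not pass without P10 array 3 (limma adjusted p = 0.28). Atp5if1, the inhibitor that stops the enzyme from running backwards, stood at 4.54, 4.28 and 4.32 in adult islets and 3.88, 3.98 and 3.98 at P10. Its change of 0.47 did not pass (limma adjusted p = 0.0713), and that of 0.74 with quantile normalization did (limma adjusted p = 0.0277).

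**Figure D3:**
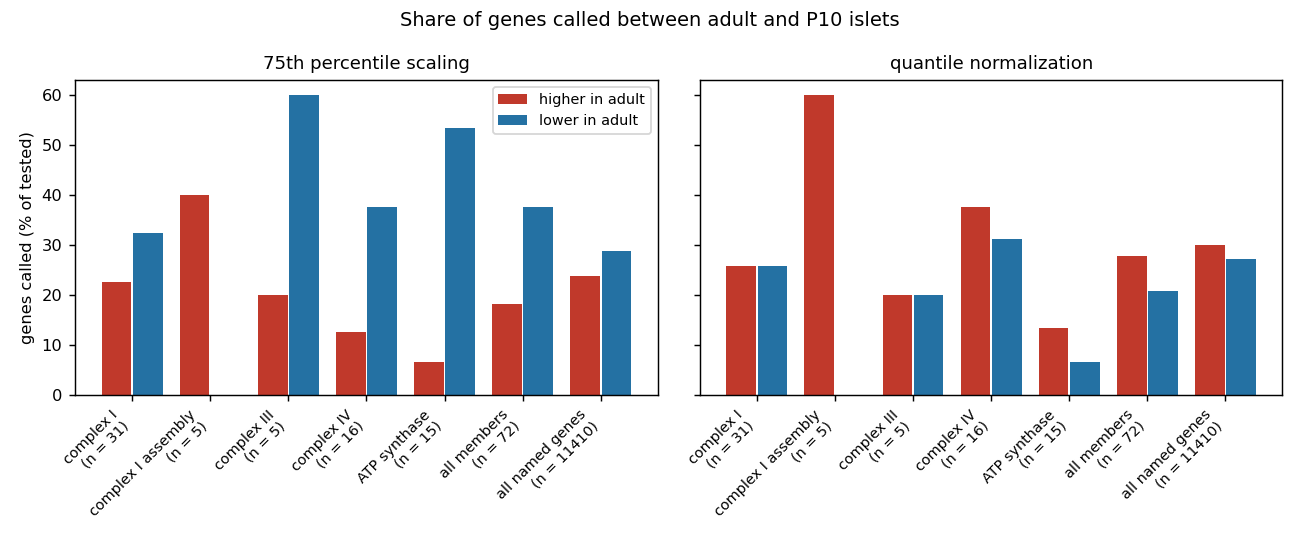
Percent of tested genes (vertical axis) that were higher (red) or lower (blue) in adult islets, for each complex, all 72 subunit and assembly genes and all 11410 named genes, with 75th percentile scaling (left) and quantile normalization (right). The ATP synthase has 8 of 15 genes lower on the left and 1 of 15 on the right.

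In the promoter windows of these genes, read from sequence and not from the array, some motifs were more frequent than in windows of all genes. RefSeq gave a window for 68 of the 77 genes. An NRF1 match (GCGCANGCG, either strand) was in 26.5% of them, beside 10.8% of 9319 windows of named genes tested and 8.05% of all 19005 protein-coding windows. An ETS match (CCGGAAG) was in 27.9%, beside 14.8% and 11.2%, and a YY1 match (AANATGGCG) in 16.2%, beside 5.02% and 4.0%. The ERR motif (TCAAGGTCA) was in 0 of the 68, beside 0.215% and 0.353%. These motifs were searched as exact letters and could overlap each other. The base composition was close, with a median GC content of 56.7% in the 68 windows and 59.0% and 55.3% in the comparison sets.

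By direction of change, 1 of 12 windows of genes that rose held an NRF1 match, 10 of 26 of those that fell and 6 of 25 of those that did not pass. With quantile normalization these were 2 of 18, 4 of 14 and 11 of 31. ETS matches were in 3 of 12, 7 of 26 and 7 of 25, and with quantile normalization in 5 of 18, 2 of 14 and 10 of 31. Of the windows printed above, the rising Ndufs4 and the falling Cox6a2 hold neither an NRF1 nor an ETS match. Uqcrc1 and Atp5po, which fell with both scalings, hold NRF1 matches. Of the other genes with a window that fell with both, Ndufb10 and Cox7a2l hold one too. Ndufab1, Ndufb7, Ndufs3, Ndufs7, Cox4i1, Cox5a and Cox6b2 hold none. No test was made of these counts, and a match is not evidence of binding.

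**Figure D4:**
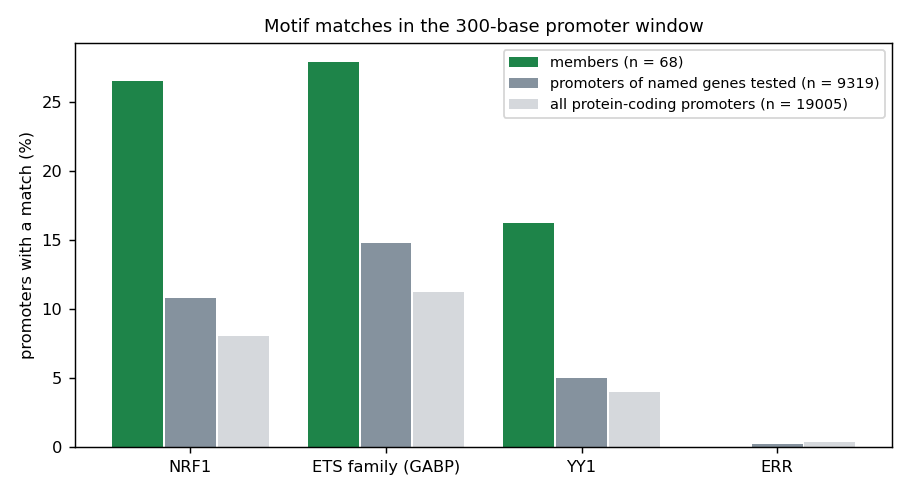
Percent of promoter windows with a match to each motif (vertical axis), for 68 windows of the respiratory chain and ATP synthase genes (green), 9319 of named genes tested and 19005 of protein-coding genes (greys). The green bars are the highest for NRF1, ETS and YY1, at 26.5%, 27.9% and 16.2%, and at 0 for ERR.

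The regulators that bind such sites or drive these genes mostly did not pass. Of 10 tested 2 rose and 2 fell with both scalings. Nrf1 (change 0.15, limma adjusted p = 0.439), Gabpa (0.17, limma adjusted p = 0.357) and Yy1 (-0.09 without adult array 2, whose spot was flagged, limma adjusted p = 0.773) did not pass. Esrrb, an orphan nuclear receptor, stood at -0.81, 0.76 and -0.12 in adult islets and -4.43, -4.81 and -4.61 at P10. It rose by 4.37 (SE 0.42, limma adjusted p = 0.00404), and Esrrg, another receptor of that family, by 1.22 (limma adjusted p = 0.0085). Esrra, the third of them, fell by 0.92 (limma adjusted p = 0.0237), and the coactivator Ppargc1b fell by 1.69 (limma adjusted p = 0.00405). Without P10 array 3, Esrrb and Ppargc1b passed, Esrrg and Esrra did not. Ppargc1a was not well above background on any array.

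The remaining parts of the pathway moved both ways, and their counts stand against 23.7% of all named genes higher and 28.7% lower (30.0% and 27.2% with quantile normalization). In complex II, succinate dehydrogenase, 1 of 4 genes fell, Sdha by 0.62 (limma adjusted p = 0.0246), and 0 rose. Of 17 assembly factors of complexes II to V 7 rose and 4 fell with both scalings, among them Lyrm7, which helps to insert the Rieske protein (1.56, limma adjusted p = 0.00532), and Cox20 (1.31, limma adjusted p = 0.00887). Coa7 (-1.57, limma adjusted p = 0.00511) and the F1 assembly factor Atpaf1 (-1.14, limma adjusted p = 0.0347) fell. Among 5 complex I assembly factors outside the Ndufaf family 2 rose and 1 fell. In coenzyme Q synthesis 2 of 12 rose, the quinone-binding proteins Coq10a (1.49, limma adjusted p = 0.00431) and Coq10b (1.62, limma adjusted p = 0.00296), and 3 fell, of which Coq7 fell by 1.22 (limma adjusted p = 0.00502). With quantile normalization 2 rose and 5 fell there. Without P10 array 3, Lyrm7, Coq10a and Coq10b rose and Coa7 fell, and the other genes named here except these 4 did not pass.

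Mitochondrial DNA maintenance and transcription had 1 rise and 2 falls among 12 genes with both scalings. Tfam, which packages mitochondrial DNA, rose by 0.98 (limma adjusted p = 0.0103), with levels of 3.01, 2.75 and 2.88 in adult islets and 1.96, 1.94 and 1.92 at P10. The helicase Twnk fell by 1.13 (limma adjusted p = 0.00587) and the topoisomerase Top1mt by 0.59 (limma adjusted p = 0.0391). None of the 3 passed when P10 array 3 was left out.

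Each gene was read by 1 probe, except Ndufaf3 and Ndufv3 with 2, and 38 of the 77 genes have annotated pseudogene copies that a probe might also read. Ndufs4 has 1 such copy, Uqcrb, Ndufa4 and Ndufab1 have 2 each, and Ndufb5, Cox6a2 and Cox6b2 have 0.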

How the data were processed

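Total RNA of 3 adult and 3 P10 islet samples was read on 6 arrays. Per the file headers, the deposited processed intensity of each spot had been background-subtracted and detrended, and the array annotation uses the rn4 build. Per the submitters' processing notes the scanner software was Agilent Feature Extraction 11.0.1.1. Another 2 deposited tables hold the authors' normalized log2 values, whose method is not given in the sources used here, and 98.77% of their entries lay within 0.05 of quantile-normalized processed signals. The scale and direction of these tables were taken from that match.

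Spots flagged as outliers were left out, log2 intensities were averaged per probe, and each array's 75th percentile was subtracted. Of 24684 probes, 18362 were tested: a probe had to be well above background on the 3 arrays of either stage and have a value in every counted replicate. Per array, 17829 to 18731 probes stood well above background and 0 spots were saturated. The number of arrays limits the precision. RefSeq accessions matched to a GRCr8 gene table named 14294 probes. A gene's brightest probe was used. Because the array build differs, no probe coordinates are given. Promoter windows came from RefSeq's GRCr8 table.

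Adult minus P10 was estimated over 4 counted replicates with limma 3.58.1 (lmFit, eBayes; R 4.3.3), with Benjamini-Hochberg adjustment and a threshold of 0.05. The fit was tested on simulated data. Alternatives were quantile normalization, median scaling, normexp with an offset of 50 (on median spot signals, since the files hold no mean signal), the authors' values, every array as its own replicate, the replicate or slide as a block, slide 1 alone, other filters, and each array left out. Slides were inferred from the scan in the file headers, and no array position repeated within a slide. Samples with the same replicate number came from different animals, and their deviations correlated at -0.21, 0.08 and -0.24, so the numbers do not pair samples.

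The genes and lists were chosen with earlier results of these data known. Genes named with values were, per complex, those with the largest rise and fall, every gene past the threshold with a change of at least 1 in log2, the isoform sets, cytochrome c and Atp5if1. Others were named after their values were seen. No set test was made: counts over the 72 genes and over the lists are descriptions, to be read against the shares of all named genes given in the text.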

Additional observations from a re-analysis of the deposited data

How the results depend on the processing

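Leaving out each array in turn gave 4 to 21 genes higher and 3 to 35 lower in adult islets, both lowest without P10 array 3, against 13 and 27 with all arrays. The highest counts came without adult array 1, and the shares of all named genes were likewise lowest and highest in these same fits. Quantile normalization gave 20 and 15, median scaling 18 and 9, normexp 10 and 12, the authors' values 19 and 16, and quantile normalization of slide 1 alone 24 and 27. The shares of all named genes moved as well. Median scaling gave 25.0% higher and 12.5% lower, beside 30.6% and 22.3% of all named genes. Normexp gave 13.9% and 16.7%, beside 13.7% and 15.7%. The authors' values gave 27.1% and 22.9%, beside 29.3% and 26.9%. The cause of the differences in counts was not tested. Quantile normalization of slide 1 and a fit with flagged spots kept were chosen after seeing the data. The fit with flagged spots kept gave 14 and 28 (18.7% and 37.3%, beside 23.7% and 28.8% of all named genes). With every array as its own replicate 19 were higher and 37 lower (27.1% and 52.9%, beside 32.3% and 38.3% of all named genes). The replicate block gave 16 and 32 (22.9% and 45.7%, beside 28.5% and 34.3%), but its arrays share only numbers and not animals. The median change of complex I was -0.13 with quantile normalization, -0.05 with median scaling, -0.16 with the authors' values and -0.18 with quantile normalization of slide 1. Complex III gave -0.31, -0.20, -0.31 and -0.28 in the same order, -0.43 with normexp, -0.72 with no detection filter, which adds Uqcrq, and -0.24 with flagged spots kept, which adds Uqcrc2. Complex IV gave 0.16, 0.09, 0.16 and 0.18, so its direction followed the scaling. The ATP synthase gave -0.04, -0.22, -0.04 and 0.08, with -0.46 from normexp and -0.61 both with slide as a block and on slide 1 alone. Leaving out each array gave medians of -0.39 to -0.35 for complex I, 0.39 to 0.50 for its assembly factors, -0.53 to -0.45 for complex III, -0.27 to -0.13 for complex IV and -0.55 to -0.43 for the ATP synthase. Of the single genes, 3 that did not pass changed sign. Cox4i2 gave -0.19 with normexp and -0.08 both with slide as a block and on slide 1. Cox6a1 gave 0.18 with quantile normalization, 0.19 with the authors' values and 0.06 with quantile normalization of slide 1. Cox6b1 gave 0.16 with median scaling, 0.04 both with slide as a block and on slide 1, and 0.24 with quantile normalization of slide 1. Counts with the mean of all probes of a gene were not run. Cox8c and Uqcrq were on no array well above background, so no change was detectable there.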

Other observations

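Genes beside the chain also moved. Of 7 genes for uncoupling and other routes of electron entry, 1 rose and 2 fell with both scalings. Ucp2, an uncoupling protein of the inner membrane, stood at -1.14, -0.51 and -0.48 in adult islets and -2.37, -2.41 and -2.50 at P10, and rose by 1.63 (SE 0.27, limma adjusted p = 0.0127). Etfb, which carries electrons from fatty acid oxidation, fell by 1.51 (limma adjusted p = 0.00328), and Dhodh, the pyrimidine synthesis enzyme that feeds ubiquinone, fell by 1.43 (limma adjusted p = 0.00395). Gpd2, the glycerol phosphate shuttle enzyme, had a change of -0.20 that did not pass (limma adjusted p = 0.251).

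Of 4 tested genes for supercomplexes and hypoxia 2 rose and 2 fell with both scalings. Higd1a, a small protein bound to complex IV, rose by 1.29 (limma adjusted p = 0.00425) and its relative Higd2a fell by 0.53 (limma adjusted p = 0.0398). Hif1a, the oxygen-regulated transcription factor, rose by 1.16 (limma adjusted p = 0.0132), with levels of 2.21, 1.81 and 1.82 in adult islets and 0.86 and 0.85 on the 2 P10 arrays that measured it. Egln3, an oxygen sensor, fell by 1.28 (limma adjusted p = 0.00704). When P10 array 3 was left out, Etfb passed (limma adjusted p = 0.0497) and the other genes of these 2 lists that had passed did not.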
